A study of Mus musculus with 8 samples.

Results

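The CXC chemokines and chemokine receptors described here are 8 genes, taken by symbol out of the 18193 genes with a probe set of their own on the arrays: the ligands Cxcl2, Cxcl10 and Cxcl16, and the receptors Ccrl2, Cxcr4, Cx3cr1, Ccr1 and Ccr2. They carry 14 probe sets, and for a gene with several, the brightest on average stands for the gene. RNA of the RAW 264.7 line, a virus-transformed mouse macrophage line, was measured on 8 Affymetrix arrays, 2 in each of 4 groups. The groups were menthol followed by LPS (LPS+M), LPS without menthol (LPS), menthol without LPS (M), and neither agent (control). Menthol was given for 1 h, and LPS, the bacterial lipopolysaccharide that activates macrophages through Toll-like receptor 4, was given at 100 ng/ml for the next 6 h in the LPS+M and LPS groups. The labels give no harvest time for M and control and no dose of menthol, so a difference in time between those groups and the groups with LPS cannot be told apart from the effect of LPS. Arrays of a group are named biological replicates there, without a word on separate cultures, so each p-value reflects the scatter of these arrays alone, and part of that scatter may be technical.

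Values are log2 GC-RMA signals, as deposited, in which 1 unit is a doubling. Differences were tested with limma over the 8908 genes whose mean signal over the arrays exceeded 4.84, the mean of all probe sets. The word called is used of a gene that had both an adjusted p (Benjamini-Hochberg) under 0.05 and a change of at least 1.5-fold, which is 0.585 on the log2 scale. Of the 8 genes, 6 passed this filter, and Ccr1 and Ccr2 did not. All 10 macrophage markers checked, among them Cd68, Csf1r and Adgre1, lay above the filter, with means of 10.0 to 15.5. Of the markers of T and NK, B, dendritic, fibroblast, epithelial and endothelial cells on the arrays, none lay above it, while 1 of 5 neutrophil markers did, the myeloid calcium-binding protein gene S100a8, at 10.8 to 11.0 on all arrays. Of the macrophage markers, Adgre1 rose by 0.95 ± 0.07 and Fcgr1 fell by 0.89 ± 0.10 (log2 fold change ± standard error) with LPS against control. No macrophage marker was called in either comparison that adds menthol. Adgre1 still read lower in LPS+M, at 10.55 and 10.60, than in LPS, at 11.00 and 11.12. The part of these marker differences in the other results was not tested. The signal comes from bulk cultures, in which fewer expressing cells and less RNA per cell cannot be told apart.

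Chemokines are small secreted proteins that direct the migration of leukocytes by binding G protein-coupled receptors on their surface. The CXC group is named for a pair of cysteines that 1 residue separates: Cxcl2 attracts neutrophils through Cxcr2, Cxcl10 is an interferon-inducible ligand of Cxcr3 that attracts activated T cells, and Cxcl16 is made as a membrane protein that can be shed and binds Cxcr6. Cxcr4 is the receptor of Cxcl12 and retains cells in bone marrow, Cx3cr1 is the receptor of the membrane-bound chemokine Cx3cl1, and Ccr2 and Ccr1 are receptors for Ccl2 and for Ccl3 and Ccl5. Ccrl2 differs from these, since it binds the chemoattractant chemerin without signaling and presents it to neighboring cells. In macrophages, LPS is known to induce inflammatory chemokine genes through NF-κB, and Cxcl10 in addition through interferon regulatory factors.

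The sequence before the start site is shown for the 3 genes that were called higher with LPS and for Cxcr4, which was called lower, so that their motifs can be set side by side. The sequences are the 250 bases before the annotated RefSeq start (GRCm38.p6), 5′ to 3′ on the strand of the gene, which 7 of the 8 genes have in the table used. Capitals mark matches to the κB consensus of NF-κB on either strand, to the interferon-stimulated response element (GAAA, any 2 bases, GAAA) and the AP-1 site TGANTCA on either strand, and to the TATA box TATAAA on the strand of the gene.
Cxcl10 (chr5:92348890-92349139, minus strand): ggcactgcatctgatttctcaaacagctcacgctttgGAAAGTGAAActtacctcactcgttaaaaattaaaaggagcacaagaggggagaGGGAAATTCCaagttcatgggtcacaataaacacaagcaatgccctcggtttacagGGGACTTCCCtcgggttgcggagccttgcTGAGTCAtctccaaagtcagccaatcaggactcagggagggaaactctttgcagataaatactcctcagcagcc
Cxcl2 (chr5:90903649-90903898, plus strand): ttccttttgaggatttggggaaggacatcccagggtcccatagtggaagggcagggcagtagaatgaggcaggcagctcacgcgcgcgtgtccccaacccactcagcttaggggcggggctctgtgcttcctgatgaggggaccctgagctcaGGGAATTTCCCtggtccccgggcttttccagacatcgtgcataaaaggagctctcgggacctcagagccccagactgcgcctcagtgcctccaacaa
Ccrl2, most upstream of 3 annotated starts (chr9:111057519-111057768, minus strand): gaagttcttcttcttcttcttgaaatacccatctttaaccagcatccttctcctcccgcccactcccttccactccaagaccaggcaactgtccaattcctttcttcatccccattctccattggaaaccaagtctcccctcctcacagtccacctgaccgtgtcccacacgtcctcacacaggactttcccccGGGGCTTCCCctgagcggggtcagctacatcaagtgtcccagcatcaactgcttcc
Cxcr4 (chr1:128592300-128592549, minus strand): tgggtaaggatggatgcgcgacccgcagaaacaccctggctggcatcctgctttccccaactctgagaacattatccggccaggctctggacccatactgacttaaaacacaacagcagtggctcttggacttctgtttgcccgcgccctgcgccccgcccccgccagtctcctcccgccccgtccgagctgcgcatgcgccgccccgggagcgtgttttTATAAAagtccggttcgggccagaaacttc

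The Cxcl10 window holds 2 κB matches, the nearer of which begins 103 bases before the start, as well as 1 response element that begins 213 bases before it and 1 AP-1 match. The Cxcl2 window holds overlapping κB matches on its 2 strands, with first bases 97 and 96 before the start. In Ccrl2, 1 κB match begins 56 bases before the most upstream start, and the windows of its other starts hold no match to any of the 4 motifs. The Cxcr4 window holds a TATA box that begins 30 bases before the start and no match to the other motifs, and those of Cx3cr1, Ccr1 and Ccr2 hold no match to any of them. Among all 32851 promoter windows of this length, 3.9% hold a κB match, 2.98% the response element, 6.75% the AP-1 site and 7.59% the TATA box. A match is a stretch of letters and not a measured binding site.

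Menthol before LPS went with differences in both directions: Cxcl10 and Cx3cr1 were lower and Ccrl2 and Cxcr4 higher in LPS+M compared to LPS, whereas Cxcl2 and Cxcl16 were not called. Of the 6 genes tested, 4 were called there, 2 higher and 2 lower, where 6.71% of all tested genes were called, 4.22% higher and 2.49% lower. For M against control 3 were called, Ccrl2 and Cxcr4 higher and Cx3cr1 lower, where 4.55% of all tested genes were called, 3.01% higher and 1.54% lower. With LPS, 4 were called against control, Cxcl2, Cxcl10 and Ccrl2 higher and Cxcr4 lower, where the background was 6.13%, with 3.17% higher and 2.96% lower. The calls of LPS+M compared to M fell on these 4 genes in the same directions, where the background was 4.16%, with 2.39% higher and 1.77% lower. LPS+M compared to control called Cxcl2, Cxcl10 and Ccrl2 higher and Cx3cr1 lower, where 9.83% of all tested genes were called, 5.53% higher and 4.3% lower. LPS compared to M called Cxcl2, Cxcl10 and Cx3cr1 higher and Cxcr4 lower, where 11.3% were called, 4.59% higher and 6.7% lower. These genes were chosen with earlier results of the same arrays known. The study itself lists Cxcl2 and Cxcl10 among genes higher with LPS and lower with menthol added, and it reports less Cxcl10 protein with menthol. The counts therefore describe the genes and are not independent evidence. The comparisons also share arrays: the LPS arrays, for example, stand in the comparison with LPS+M and in that with control. With the methods' t-test after Benjamini-Hochberg adjustment, none of the 8908 genes was called in any of the 6 comparisons between groups, and between 217 and 640 were called with its unadjusted p.

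**Figure D1:**
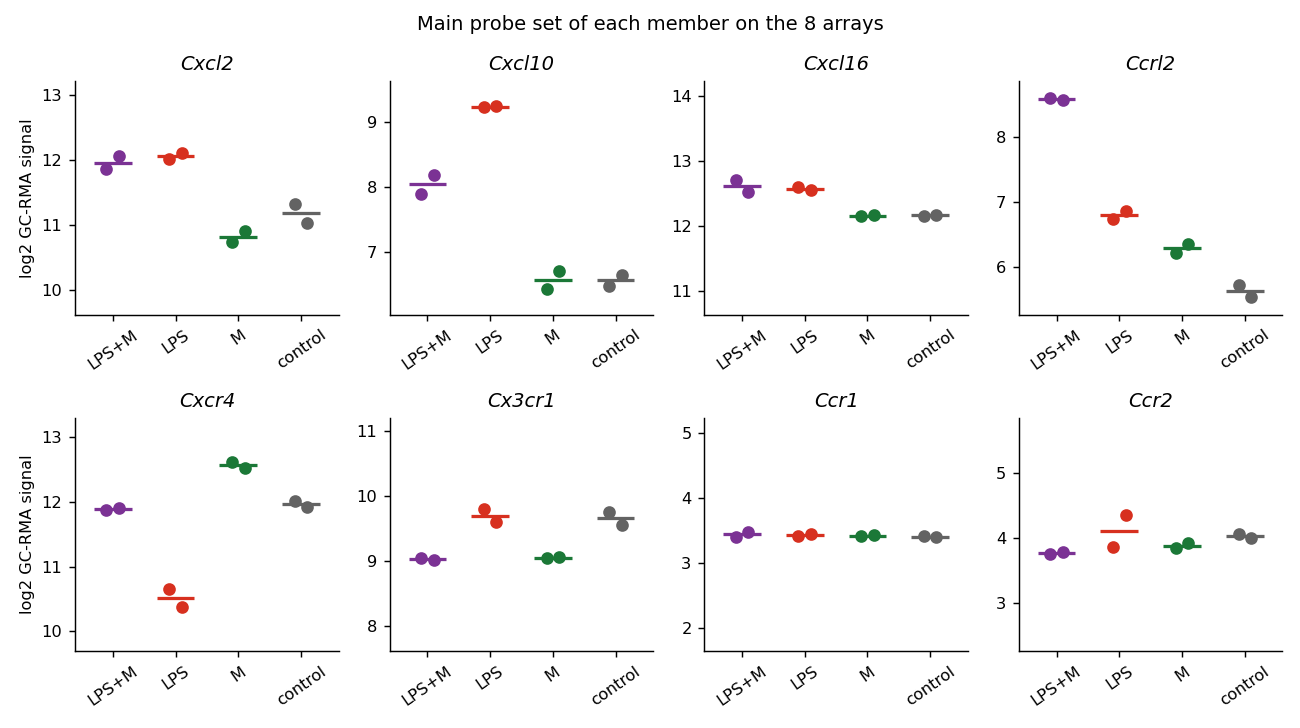
Log2 GC-RMA signal (y axis) of the main probe set of each of the 8 genes on the 8 arrays, by group (x axis), with a dot for each array and a line at the mean of the 2 arrays. Every panel spans 3.6 log2 units. Ccrl2 is highest in LPS+M, Cxcl10 is highest in LPS, Cxcr4 is lowest in LPS, and Cx3cr1 is lower in LPS+M and M than in LPS and control.

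Cxcl10, the interferon-inducible ligand, had the largest rise of the 8 genes in LPS compared to control, and it was lower in LPS+M than in LPS by more than the spread between arrays. Its signals were 7.90 and 8.20 in LPS+M, 9.24 and 9.25 in LPS, 6.43 and 6.70 in M, and 6.48 and 6.65 in control. The LPS arrays were the highest, the LPS+M arrays lay between them and the rest, and the M and control arrays overlapped. In LPS compared to control, Cxcl10 rose by 2.68 ± 0.13 (log2 fold change ± standard error, limma adjusted p = 9.68e-06), a 6.39-fold difference. The rise was 1.48 ± 0.13 in LPS+M compared to M (adjusted p = 0.000234), and LPS+M was lower than LPS by a log2 fold change of -1.20 ± 0.13 (adjusted p = 0.000624), a 2.29-fold difference. LPS+M nevertheless remained 1.48 ± 0.13 above control (adjusted p = 0.000111). Menthol without LPS gave -0.0012 ± 0.13 (adjusted p = 0.997), with a 95% interval of -0.29 to 0.29, which turned to 0.0051 with array medians made equal, to 0.09 without the second control array and to 0.14 without the first M array. That interval leaves out a 1.5-fold difference in either direction.

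Cxcl2, the neutrophil chemoattractant, was higher in every LPS-treated array than in every array without LPS, and the LPS+M and LPS arrays overlapped. Its signals were 11.86 and 12.07 in LPS+M, 12.01 and 12.11 in LPS, 10.73 and 10.91 in M, and 11.32 and 11.04 in control. In LPS+M compared to M, Cxcl2 rose by 1.14 ± 0.12 (limma adjusted p = 0.000631), and in LPS compared to control it rose by 0.88 ± 0.12 (adjusted p = 0.0016). For LPS+M compared to LPS the log2 fold change was -0.10 ± 0.12 (adjusted p = 0.571), with an interval of -0.37 to 0.17, and it was 0.0051 without the first LPS+M array. A fall as large as that of Cxcl10 lies outside this interval. The study lists Cxcl2 among genes lower with menthol added to LPS, whereas here no such fall was called. Menthol without LPS gave -0.36 ± 0.12 (adjusted p = 0.0633), with an interval of -0.63 to -0.09. Both M arrays lay below both control arrays, and the gene was not called. From high to low the groups stood in the order LPS, LPS+M, control and M, in which LPS and LPS+M did not differ beyond their spread.

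Cxcl16, the membrane-anchored ligand, followed LPS with a small difference that stayed under the fold minimum. Its main probe set read 12.71 and 12.52 in LPS+M, 12.60 and 12.55 in LPS, 12.15 and 12.17 in M, and 12.15 and 12.17 in control. All 4 arrays with LPS lay above all 4 without it, and the groups with and without menthol overlapped on each side. The log2 fold change was 0.46 ± 0.08 in LPS+M compared to M (limma adjusted p = 0.00671) and 0.41 ± 0.08 in LPS compared to control (adjusted p = 0.00739), which passes the threshold on p and not that on fold. Its other probe set, tested among all single-symbol probe sets, gave 0.55 ± 0.09 and 0.48 ± 0.09 in the same comparisons. The menthol difference of Cxcl16 was 0.04 ± 0.08 in LPS+M compared to LPS, with an interval of -0.14 to 0.22, and -0.0039 ± 0.08 in M compared to control, with an interval of -0.18 to 0.17. Differences of 1.5-fold lie outside both intervals. The sign of these near-zero values turned with single arrays: LPS+M compared to LPS gave -0.058 without the first LPS+M array.

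Ccrl2, the non-signaling chemerin receptor, rose with each agent and was highest with both. Its signals were 8.60 and 8.57 in LPS+M, 6.75 and 6.86 in LPS, 6.22 and 6.36 in M, and 5.72 and 5.53 in control. The 4 groups did not overlap, and they stood in the order LPS+M, LPS, M and control from high to low. In LPS+M compared to LPS, Ccrl2 rose by 1.78 ± 0.09 (limma adjusted p = 3.48e-05), a 3.43-fold difference, and it rose by 2.30 ± 0.09 in LPS+M compared to M (adjusted p = 5.36e-06). With LPS as the single agent it rose by 1.18 ± 0.09 against control (adjusted p = 8.15e-05), and with M by 0.66 ± 0.09 (adjusted p = 0.00235). The M rise was 0.57 and not called without the second control array. Its largest difference was 2.96 ± 0.09 in LPS+M compared to control (adjusted p = 1.29e-06), a 7.79-fold difference. LPS compared to M gave 0.52 ± 0.09 (adjusted p = 0.00255), under the fold minimum, and was called at 0.59 after quantile normalization and at 0.59 without the second M array.

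Cxcr4, the Cxcl12 receptor, moved the opposite way with each agent, lower with LPS and higher with menthol. Its signals were 11.87 and 11.90 in LPS+M, 10.66 and 10.38 in LPS, 12.61 and 12.52 in M, and 12.01 and 11.91 in control. The M arrays were the highest and the LPS arrays the lowest, with LPS+M just below control. Cxcr4 fell by 1.44 ± 0.10 in LPS compared to control (limma adjusted p = 5.24e-05), a 2.71-fold difference, and fell by 0.68 ± 0.10 in LPS+M compared to M (adjusted p = 0.00322). It rose by 1.36 ± 0.10 in LPS+M compared to LPS (adjusted p = 0.000128) and by 0.60 ± 0.10 in M compared to control (adjusted p = 0.0049). The rise with menthol without LPS was the weaker call, at 0.56 and not called when either the second control array or the first M array was left out. LPS+M compared to control gave -0.08 ± 0.10 (adjusted p = 0.583), with an interval of -0.30 to 0.15, which leaves out a 1.5-fold difference. The widest gap was between LPS and M, where Cxcr4 fell by 2.04 ± 0.10 (adjusted p = 6.43e-06).

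Cx3cr1, the Cx3cl1 receptor, was lower in every array with menthol than in every array without it, whether or not LPS was given. Its main probe set read 9.05 and 9.02 in LPS+M, 9.79 and 9.60 in LPS, 9.04 and 9.05 in M, and 9.75 and 9.56 in control. Cx3cr1 fell by 0.66 ± 0.09 in LPS+M compared to LPS (limma adjusted p = 0.00169) and by a log2 fold change of -0.61 ± 0.09 in M compared to control (adjusted p = 0.00345). These differences lie close to the fold minimum, and single arrays decided the call: the first was -0.57 without the first LPS array, and the second was -0.51 without the first control array, neither called. LPS+M lay below control by a log2 fold change of -0.62 ± 0.09, and without the first control array this was -0.52 and not called, while LPS lay above M by 0.65 ± 0.09, and without the first LPS array this was 0.55 and not called. LPS itself gave 0.04 ± 0.09 in LPS compared to control (adjusted p = 0.787), with an interval of -0.16 to 0.25, and -0.01 ± 0.09 in LPS+M compared to M, with an interval of -0.22 to 0.19. LPS arrays overlapped those of control, LPS+M arrays overlapped those of M, and differences of 1.5-fold lie outside both intervals. The other Cx3cr1 probe set read 2.97 to 3.60 over the arrays, below the filter. Its first control array, at 3.60, and its first LPS+M array, at 3.46, lay above their partners, at 2.98 and 3.02. Averaging this probe set with the main one left -0.21 in LPS+M compared to LPS and -0.45 in M compared to control, neither called. With that average, Cx3cr1 was also not called in LPS+M compared to control or in LPS compared to M.

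Ccr1 and Ccr2, the receptors for inflammatory CC chemokines, gave low signals in every group. The main Ccr1 probe set read 3.39 and 3.48 in LPS+M, 3.41 and 3.45 in LPS, 3.41 and 3.43 in M, and 3.41 and 3.40 in control. Groups overlapped or lay within 0.1 of each other, and its other probe set spanned 2.31 to 2.34. For Ccr2, the main probe set read 3.75 and 3.79 in LPS+M, 3.86 and 4.35 in LPS, 3.83 and 3.92 in M, and 4.06 and 4.003 in control, with the second LPS array the highest. The other 3 Ccr2 probe sets stayed between 2.22 and 2.55. In a fit of all 18193 genes, neither gene was called in any comparison, where 3.12% of genes were called for LPS+M against LPS, 2.03% for M against control and 2.97% for LPS against control. The share was 1.91% for LPS+M against M, 4.9% for LPS+M against control, 5.55% for LPS against M and 0.0055% for the interaction, the difference between the menthol responses with and without LPS. Ccr2 had the wider intervals, at -0.34 ± 0.15 in LPS+M compared to LPS (limma adjusted p = 0.288, interval -0.71 to 0.04). At such signals no change of these genes was detectable with these probe sets, which does not show that there was none.

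**Figure D2:**
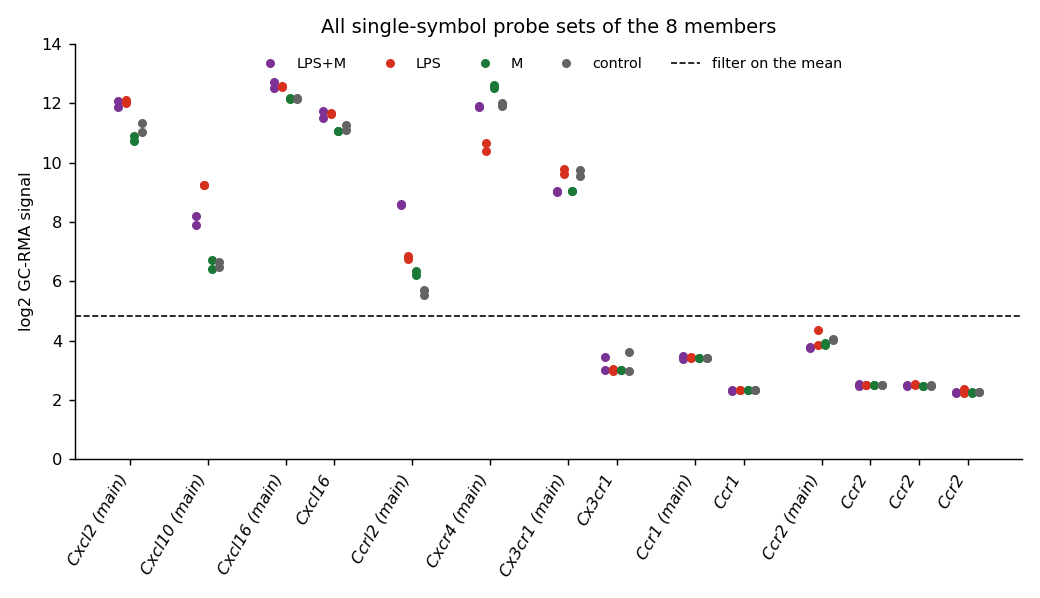
Log2 GC-RMA signal (y axis) of all 14 probe sets of the 8 genes, with a dot for each array colored by group and a dashed line at 4.84, the filter on the mean. Of these, 7 probe sets lie above the line, and those of Ccr1, of Ccr2 and the second of Cx3cr1 lie below it.

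The difference made by menthol was set against LPS by an interaction, the menthol difference with LPS minus that without. Of the 6 genes tested, 1 was called, Ccrl2, at 1.12 ± 0.12 (limma adjusted p = 0.0182), where 0.236% of all tested genes were called, 0.0337% higher and 0.202% lower. The Ccrl2 call was lost in a fit of all genes without a filter (adjusted p = 0.092) and in a fit of single probe sets (adjusted p = 0.0694). It was also lost without the first control array at 1.02, the first LPS array at 1.06, the first M array at 1.05, the second M array at 1.18 or the first LPS+M array at 1.10. Cxcl10 had -1.19 ± 0.18 (adjusted p = 0.0595), a larger value with a wider error, and it was called at -1.19 with the replicate block (adjusted p = 0.0189), at -1.34 without the second LPS+M array, and with array medians made equal, at a filter of 6 and with trended and robust eBayes. For Cxcr4 the interaction was 0.76 ± 0.14 (adjusted p = 0.108), and it was called with trended and robust eBayes. Cxcl2 had 0.26 ± 0.16 (adjusted p = 0.681), with an interval of -0.12 to 0.64, and Cx3cr1 had -0.06 ± 0.13 (adjusted p = 0.943), with an interval of -0.35 to 0.23. The falls of Cx3cr1 with menthol with and without LPS were not shown to differ, and differences inside that interval remain possible.

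**Figure D3:**
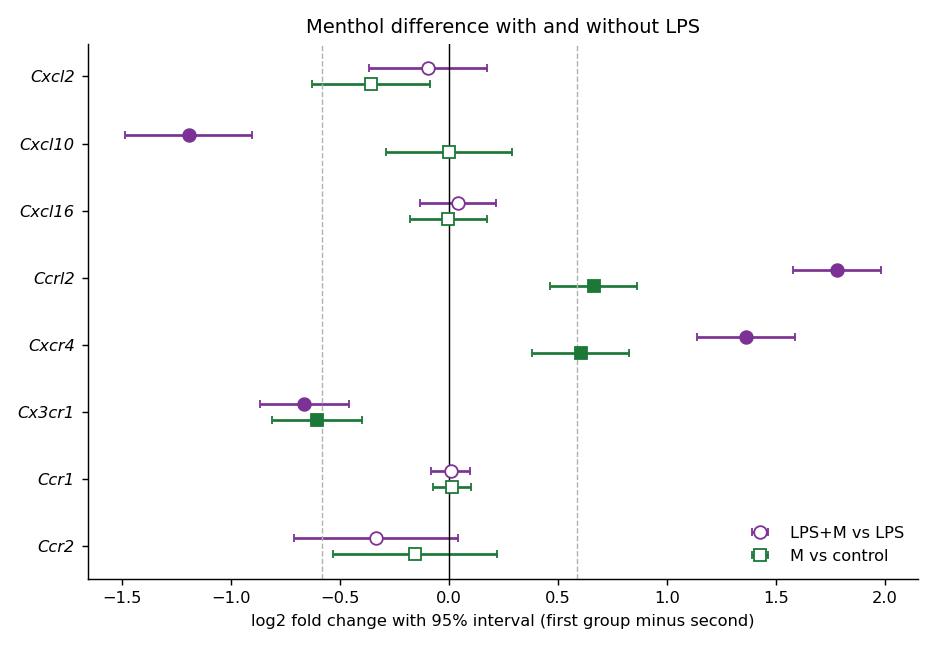
Log2 fold change with its 95% interval (x axis) of each of the 8 genes in LPS+M compared to LPS (circles) and in M compared to control (squares), with filled symbols for called genes and dashed lines at the 1.5-fold minimum. Cxcl10 lies at -1.20 with LPS and near 0 without it, Ccrl2 at 1.78 and 0.66, and Cx3cr1 at -0.66 and -0.61.

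**Figure D4:**
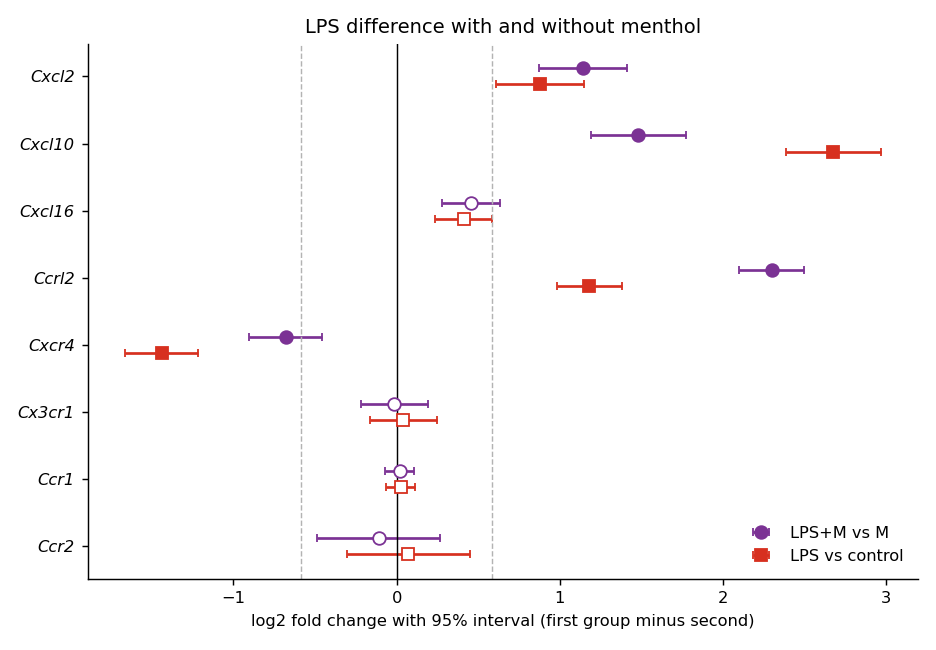
Log2 fold change with its 95% interval (x axis) of each of the 8 genes in LPS+M compared to M (circles) and in LPS compared to control (squares), with filled symbols for called genes and dashed lines at the 1.5-fold minimum. Cxcl10 lies at 1.48 with menthol and 2.68 without it, Ccrl2 at 2.30 and 1.18, and Cxcr4 at -0.68 and -1.44.

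Of 17 CXC, CX3C and XC chemokine genes, all on the arrays, 4 passed the filter: Cxcl2, Cxcl10, Cxcl16 and Pf4, a CXC chemokine also stored in platelets. Pf4 read 14.6 to 14.8 on all arrays, with log2 fold changes of 0.04 ± 0.07 in LPS+M compared to LPS and 0.02 ± 0.07 in M compared to control, neither called. The median of these 4 genes was 0.80 in LPS+M compared to M and 0.65 in LPS compared to control, against -0.03 and -0.03 over all tested genes. Pf4 itself had -0.01 ± 0.07 and -0.04 ± 0.07 there. The medians thus restate values of Cxcl2, Cxcl10 and Cxcl16 given above and are not independent evidence. Cxcl12, the ligand of Cxcr4, read 2.42 to 2.47 and Cx3cl1, the ligand of Cx3cr1, 2.77 to 2.85, both under the filter. Cxcr2, the receptor of Cxcl2, and Cxcr6, that of Cxcl16, read 2.22 to 2.26 and 3.10 to 3.17, also under it.

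Of 25 chemokine receptor genes listed, 23 were on the arrays as read here and 5 passed the filter: Ccrl2, Cxcr4, Cx3cr1, Cxcr3 and Ackr4, an atypical receptor that scavenges CC chemokines. Cxcr3, the receptor of Cxcl10, read 6.82 and 6.95 in LPS+M, 7.27 and 7.27 in LPS, 6.87 and 7.25 in M, and 7.56 and 7.77 in control. It was highest in control and fell by 0.61 ± 0.13 in M compared to control (limma adjusted p = 0.0139), while LPS+M compared to LPS gave -0.38 ± 0.13 (adjusted p = 0.058), not called. The largest Cxcr3 difference was -0.78 ± 0.13 in LPS+M compared to control (limma adjusted p = 0.00267), which was called. LPS compared to control gave -0.40 ± 0.13 (adjusted p = 0.0618), not called. Of the 5 receptors, LPS+M against LPS called 2 higher and 1 lower, where 4.22% of all tested genes were called higher and 2.49% lower. M against control called 2 in each direction, where the shares were 3.01% higher and 1.54% lower. LPS against control called 1 in each direction, where they were 3.17% and 2.96%. These counts include Ccrl2, Cxcr4 and Cx3cr1, whose calls are given above, and are not independent evidence. Ackr4 was called in none of the comparisons. Unlike Ccr1 and Ccr2, most of their CC ligands passed the filter, 7 of 9 genes. For LPS+M against LPS, 5 of these 7 were called lower and none higher, where 2.49% of all tested genes were called lower, and Ccl6 and Ccl9, at -0.20 and -0.15, were not called. For M against control, 4 were called lower and none higher, where 1.54% were called lower, among them Ccl2 at -1.52 ± 0.09, while Ccl5 had 0.12 ± 0.08 and was not called. The study had picked some of these CC genes from the same measurements, so their counts are not independent evidence. Apart from these arrays, it also reports less protein of Ccl3, Ccl5 and Ccl12 with menthol before LPS.

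Of 28 tested genes for G proteins, their regulators, arrestins, receptor kinases and downstream effectors, 1 was called higher and 2 lower in LPS+M compared to LPS, where 4.22% of all tested genes were called higher and 2.49% lower, with a median of 0.05 against 0.03 over all tested genes. Grk5, a kinase that phosphorylates activated receptors, rose by 0.64 ± 0.13, and Arrb1, which encodes β-arrestin 1, fell by 0.73 ± 0.11. Rgs18, an inhibitor of G protein signaling, fell by 0.70 ± 0.11 and was the single gene of this list called in M compared to control, at -0.95 ± 0.11, where 4.55% of all tested genes were called. In LPS compared to control 1 rose, Pik3r5, a regulatory subunit of the PI3-kinase that G protein βγ subunits activate, by 1.22 ± 0.09, and 3 fell, all of them Rgs genes: Rgs1 by 0.79 ± 0.10, Rgs18 by 0.76 ± 0.11 and Rgs14 by 0.75 ± 0.08, where 3.17% of all tested genes were called higher and 2.96% lower. Of 5 tested genes for processing of chemokines, which include the Cxcl16 sheddase gene Adam10, 1 was called in any comparison, Rhbdf2, which helps the sheddase Adam17 mature, at 1.10 ± 0.09 in LPS+M compared to control (adjusted p = 7.85e-05), where 9.83% of all tested genes were called. Rhbdf2 had 0.55 ± 0.09 for LPS+M against LPS, 0.53 ± 0.09 for M against control and 0.56 ± 0.09 for LPS against control, each under the fold minimum.

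Of 25 tested genes for transcription and decay factors that act on chemokine genes, 8 were called higher and 1 lower in LPS compared to control, where 3.17% of all tested genes were called higher and 2.96% lower, with a median of 0.13 against -0.03 over all tested genes. Nfkbiz, an NF-κB cofactor, rose by 2.84 ± 0.10, and Zc3h12a, an RNase that degrades inflammatory mRNAs, rose by 2.75 ± 0.19. In LPS+M compared to LPS, 3 were called higher and 1 lower, where the background was 4.22% higher and 2.49% lower, with a median of 0.19 against 0.03. Nfkbia, the inhibitor of NF-κB that NF-κB itself induces, fell by 0.75 ± 0.10, whereas the immediate-early factor gene Egr1 rose by 1.26 ± 0.11 and Bcl3, a nuclear NF-κB regulator, by 1.20 ± 0.12. Bcl3 was also the single gene of this list called in M compared to control, at 1.11 ± 0.12, where 3.01% of all tested genes were called higher.

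Other genes followed the same patterns over the 8 arrays, given here by Pearson correlation across arrays among tested genes with a range of at least 1 and with no test, since 4 groups of 2 arrays set most of each value. Closest to Cxcl10 were Gbp2b, an interferon-inducible GTPase, at 0.995 and Mfap3l at 0.994. Gbp2b read 6.11 and 6.44 in LPS+M, 7.84 and 7.86 in LPS, 4.10 and 3.94 in M, and 4.10 and 4.18 in control, the same order of groups with LPS as for Cxcl10. Closest to Ccrl2 were Plagl2, a zinc finger transcription factor, at 0.992 and Lcp2, an adaptor of immune receptor signaling, at 0.977. Cxcr4 was closest to the transcription factor gene Klf4 at 0.984, which read 9.55 and 9.80 in LPS+M, 8.23 and 8.16 in LPS, 10.21 and 10.24 in M, and 9.57 and 9.37 in control, and to Rnf167 at 0.982. As with Cxcr4, the M arrays of Klf4 were the highest and the LPS arrays the lowest. Cx3cr1 was closest to Cdca7, a gene linked to cell division, at 0.991 and to the coactivator gene Ppargc1b at 0.975. For Cxcl16 these were Traf1, a signaling adaptor of TNF receptors, at 0.993 and Pik3r5 at 0.985, and for Cxcl2 they were Susd6 at 0.976 and Spryd7 at 0.976.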

How the data were processed

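Total RNA of RAW 264.7 cells was hybridized to 8 Affymetrix mouse arrays, whose groups follow the sample labels. The authors deposited log2 signals from GC-RMA (GCRMA version 2.10.0 and R version 2.6.1, per the submitters' processing notes), which adjusts background from probe GC content, applies quantile normalization and summarizes each probe set. The log2 base follows the methods. Array medians were 2.99 to 3.04. Scan dates and detection calls were not used here, and precision is limited by 2 arrays per group.

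Of 45101 probe sets, 34945 with a single gene symbol were kept, and 932 with several symbols, 9160 with none and 64 controls were left out. limma 3.58.1 under R 4.3.3 (lmFit, eBayes) was fitted to all 8 arrays with 1 term per group, and genes below the filter came from a fit of all 18193 genes. Intervals are 95% intervals for single genes. Exact permutation of 2 against 2 arrays has a smallest two-sided p of 0.333, so no such test is given. The fit was tested on simulated data.

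Named were all 8 genes and their probe sets, at most 4 called genes per list and comparison, any gene of a list with fewer than 13 tested genes, and the 2 genes most correlated with each member. The members and lists were chosen with earlier results of these data known, and some listed genes were not analysed here. Alternatives covered filters, probe set choice, scaling, tests, fold minimums, a block for the replicate number, and omission of each array. Motifs were searched in RefSeq promoters of GRCm38.p6.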

Additional observations from a re-analysis of the deposited data

Results flagged for a closer look

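Ccrl2 differed in its response to menthol with and without LPS by the interaction test. The menthol difference was 1.78 ± 0.09 with LPS and 0.66 ± 0.09 without it, and the difference of these was 1.12 ± 0.12 on the log2 scale (limma adjusted p = 0.0182, 2 arrays per group). Both arrays of LPS+M lay above every other array. The interaction of Ccrl2 was not called in a fit of all genes without a filter, nor with every probe set tested by itself. A difference in harvest time cannot be told apart from LPS here, since the labels give none for M and control. Without single arrays the value stayed between 1.02 and 1.21, and it was not called without the first control, the first LPS, either M or the first LPS+M array.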

How the results depend on the processing

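Over the alternatives, 121 counts of called members stayed within 1.5 times the main count and 23 did not. Of the values of single members, 790 kept their direction and side of the threshold, 58 lost the call, 13 gained it and 17 changed sign. The test of the methods moved the counts of members most. With its unadjusted p, 1 member was called in LPS+M compared to LPS and 2 in LPS+M compared to control, in place of 4 each. Of all 8908 tested genes, 288 and 503 were called in these comparisons with that p. After Benjamini-Hochberg adjustment 0 members, and 0 of all tested genes, were called in each of the 6 comparisons between groups. With a 2-fold minimum, 0 members were called in M compared to control in place of 3, and 2 in LPS+M compared to control in place of 4. For the interaction, in place of 1 member, 0 were called with no filter and with every probe set tested by itself, 2 with a filter at 6, with array medians made equal by a shift and with the replicate block, and 3 with trended and robust eBayes. The replicate block changed no other count, and same-numbered arrays deviated together at correlations of -0.12 to 0.19. The labels do not say whether equal numbers mark a shared culture or batch, and this was not tested. Leaving out each array gave 1 to 3 members called in M compared to control, with 1 without the second control array, and 0 to 2 for the interaction. For most of these alternatives the share of all genes called is not given, so the counts describe the members alone. The cause of these shifts was not tested.

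Signs changed for values that were not called, before or after. With the mean of all probe sets, Cx3cr1 had -0.12 in LPS compared to control, 0.11 in LPS+M compared to M and 0.24 for the interaction. With array medians made equal, Cxcl10 had 0.0051 and Cxcl16 0.0025 in M compared to control. Leaving out each array gave Cxcl10 -0.14 to 0.14 and Cxcl16 -0.016 to 0.008 in M compared to control, and Cxcl16 -0.058 to 0.14 and Cxcl2 -0.20 to 0.0051 in LPS+M compared to LPS. It gave Cx3cr1 -0.056 to 0.14 in LPS compared to control, -0.029 to 3e-04 in LPS+M compared to M and -0.15 to 0.041 for the interaction, where Cxcl16 had -0.054 to 0.14. With no detection calls used, signal over background limits what can be said of Ccr1 and Ccr2.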
